A study of Homo sapiens with 9 samples.

Results

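Chromatin remodelers and histone modifiers were followed here at the level of their mRNAs, in RNA that had been pulled down with a pair of axon guidance receptors. The genes were taken by symbol, with no measured value in the rule, although earlier results of these data were known. The symbols were those of the CHD, SMARC and ARID families, the lysine demethylases (KDM), and the methyltransferases of the KMT, SETD and NSD families. The histone deacetylases and sirtuins (HDAC, SIRT) followed, with EZH1, EZH2, SUZ12 and EED of the Polycomb group. The last were the ASXL and BRD families, EP300 and CREBBP. The rule gave 94 of the 42785 genes listed in the files. They were divided by function into 14 remodeler ATPases and helicases, 17 SWI/SNF accessory subunits and ARID proteins, 15 histone demethylases, 16 SET domain methyltransferases, 18 histone deacetylases and sirtuins, 7 Polycomb and ASXL proteins, and 7 acetyltransferases and other bromodomain proteins.

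All libraries came from SH-SY5Y, an established human neuroblastoma line, grown in high glucose DMEM with serum and given no other treatment that the labels name. RNA was isolated from lysate after pulldown with a mouse antibody against DCC, the receptor of Netrin-1 (DCC-IP), after pulldown with a rabbit antibody against Nrp1, the receptor of Sema3A (Nrp1-IP), or from the lysate itself (Input), with 3 libraries in each group. Unlysed cells and nuclei were spun out before the pulldown, and the cDNA was amplified by PCR with a method made for single cells. The labels do not say whether replicates were separate cultures, so that p-values measure the spread between these libraries, which may be technical. No library from a control antibody was among those analysed here, so that binding to beads or antibody cannot be told apart from binding to a receptor. A library of this kind gives shares of RNA only: the amount of RNA that a pulldown recovered cannot be read from it. Nor can fewer cells of a type and less RNA per cell be told apart in it.

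Remodeler ATPases use the energy of ATP to slide, evict or exchange nucleosomes, and most work in large complexes such as SWI/SNF, ISWI and NuRD. Histone modifiers add or remove acetyl and methyl groups on histone tails, and proteins with bromodomains, chromodomains or PHD fingers bind the modified tails. Many of these genes are needed in the developing nervous system, and mutations in CHD7, CHD8 or ARID1B cause neurodevelopmental syndromes.

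Reads counted on genes numbered from 8838296 to 11055895 per library. A count of 3, used as the limit of detection, was worth 0.271 to 0.339 CPM by these totals. CPM is a unit in which counts are scaled to a common total per library. The CPM of genes given below were also scaled by TMM. After that scaling, 3 counts came to 0.207 CPM in DCC-IP replicate 3 and 0.387 in Input replicate 1. Of the 94 genes, 5 had no count in any library (ARID5A, CHD5, HDAC10, KDM8 and SETD9) and 5 more never passed 3 counts. A count was present in all 9 libraries for 45 genes, and 26 had at least 10 counts in each. MAP1B mRNA alone took between 40.3% and 52.1% of the counts of a DCC-IP library and between 1.58% and 2.44% of the counts of the others, and shares are therefore given with and without it. The cells' identity was checked with 12 neuroblastoma markers, of which 12 passed 3 counts in at least 1 Input library. In each pulldown, 11 passed 3 counts in at least 1 library. Not every library held them: STMN2 had 0 counts in replicate 1 of each group, and PHOX2A and NEFM in Input replicate 1. All 4 haematopoietic markers were at 0 throughout. The 5 fibroblast markers summed to 2.72 to 6.76 CPM in Input, 0.727 to 2.53 with DCC-IP and 1.09 to 2.29 with Nrp1-IP, COL1A1 having 29, 40 and 34 counts in Input, and the 4 epithelial markers were at 0 except for 12 counts of EPCAM in Nrp1-IP replicate 2. The neuroblastoma markers summed to 231 to 450 CPM in Input, 1841 to 3308 with DCC-IP and 1178 to 1514 with Nrp1-IP, largely through ISL1, and their part in the results was not tested. DCC mRNA itself had 0 counts in all 9 libraries.

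The chromatin mRNAs held a small share of each library, and BRD3 held most of that share outside DCC-IP. They made up 0.654% ± 0.0864 of all gene counts in Input, 0.500% ± 0.0744 after DCC pulldown and 0.871% ± 0.0931 after Nrp1 pulldown (SD, 3 libraries each). With MAP1B left out of the totals, the shares in the same order were 0.668% ± 0.0894, 0.967% ± 0.238 and 0.890% ± 0.0989, and the order of DCC-IP and Nrp1-IP turned over. BRD3, which binds acetylated histones through its bromodomains, took 71.0% ± 0.853 of the counts on chromatin mRNAs in Input, and 39.7% ± 3.23 of those in DCC-IP against 69.3% ± 1.07 with Nrp1-IP. Without BRD3 and MAP1B, the remaining chromatin mRNAs took 0.194% ± 0.0280 of the counts in Input, 0.583% ± 0.146 with DCC-IP and 0.273% ± 0.0371 with Nrp1-IP, and the 3 groups of libraries did not overlap. These shares are of counts that were not divided by transcript length, so they do not rank the genes by number of molecules.

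**Figure D1:**
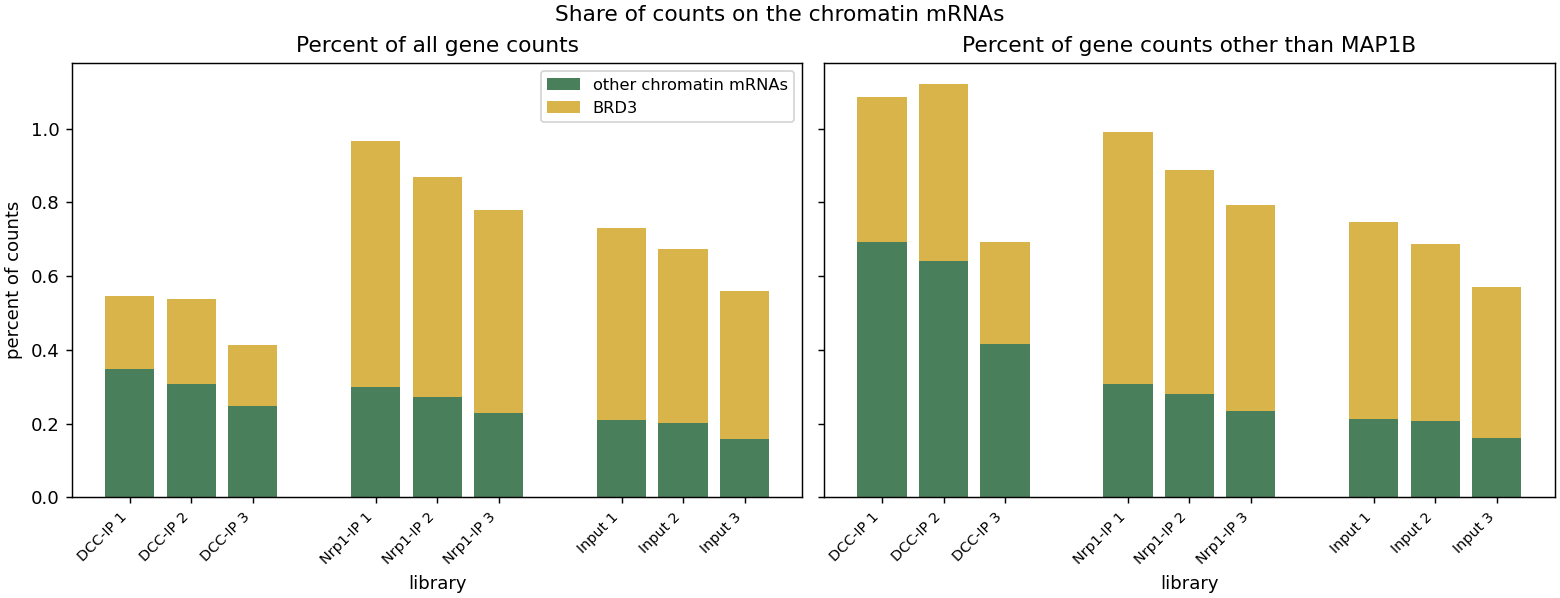
Share of gene counts on the chromatin mRNAs in each of the 9 libraries, in percent of all gene counts (left) or of gene counts other than MAP1B (right), with BRD3 in yellow and the other chromatin mRNAs in green. BRD3 took 69.3% of the coloured bar on average in Nrp1-IP and 71.0% in Input but 39.7% in DCC-IP, and the green part of the right panel was highest in the DCC-IP libraries.

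Which of these mRNAs were recovered to a different degree by each receptor than their level in the lysate was asked by fitting the 6 libraries of each pair of groups with the quasi-likelihood test of edgeR, adjusting p over all genes tested by the Benjamini-Hochberg method, with calls at an adjusted p under 0.05. In DCC-IP over Input, 60 of the 94 genes had counts enough for the test, and 2 were called, BRD3 and SMARCE1, both lower in DCC-IP, while 4.98% of all genes tested were called and 3.52% were called lower. None was called higher, where the background was 1.46% of all genes, although 16 of the 60 were higher at an unadjusted p under 0.05 (10.8% of all genes were, and 22% in either direction), and 3 were lower (11.1%). DESeq2 called 10 of the 60 higher (8.16% of all genes) and 1 lower (8.42%), 16.6% of all genes in either direction. The median log2 fold change of the 60 was 1.39, beside 0.16 over all 6223 genes tested, and 43 of them had a positive value. Every DCC-IP library lay above every Input library for 17 genes, a position held by 15.2% of all genes, and below it for 6 (18.1%). Of the 60 genes, 26 passed the filter on low counts in all 6 libraries, while 10 did so in all DCC-IP libraries only and 7 in all Input libraries only, so that part of the list was tested because of its level in 1 group.

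Libraries of DCC-IP and Input with the same replicate number deviated together from their group means on average (mean correlation 0.242). Same-numbered libraries of the other comparisons did so to a similar degree (means 0.191 and 0.192). In DCC-IP over Input, a fit with the replicate number as a block called 8 of the 60 genes, where 11.5% of all genes were called. The 2 genes lower in DCC-IP stayed called, with adjusted p = 0.00222 for BRD3 and 0.00797 for SMARCE1, where 7.67% of all genes were called lower. The other 6 were higher in DCC-IP, where the background with the block was 3.82%: BRD8 (adjusted p = 0.00665), CHD4 (0.00893), HDAC9 (0.0191), KMT2E (0.0217), ARID4B (0.0271) and KDM5A (0.0426).

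In Nrp1-IP over Input, 56 genes could be tested and 6 were called, where 4.97% of all genes were. ARID4B, BRD8, CHD7 and KDM4A were higher in Nrp1-IP (1.94% of all genes were called higher), and ARID1B and SMARCE1 were lower (3.03%). At an unadjusted p under 0.05, 14 were higher (11.5% of all genes) and 5 lower (10.1%), 21.6% of all genes in either direction. DESeq2 called 8 higher (5.8%) and 4 lower (9.06%), 14.9% of all genes in either direction. The median log2 fold change was 0.82 for the 56 genes and 0.06 over all 6501 genes tested, and 39 of the 56 values were positive. Every Nrp1-IP library lay above every Input library for 26 genes (17.7% of all genes) and below it for 4 (13.8%). The filter on low counts was passed in all 6 libraries by 30 genes, in all Nrp1-IP libraries only by 20 and in all Input libraries only by 3. The comparisons of the pulldowns with Input used the same 3 Input libraries, so that a low or high Input library enters both.

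Between the receptors, in Nrp1-IP over DCC-IP, none of the 59 genes tested was called by edgeR's quasi-likelihood test with TMM scaling and no block, where 3.65% of all genes were, 2.56% higher and 1.09% lower in Nrp1-IP. That count of 0 depended on the settings, since every other edgeR setting that kept all 6 libraries called BRD3 higher, and the block (where 5.73% of all genes were called) and a minimum of 10 counts in each library also called ARID1B lower. The latter called HDAC9 and KMT2E lower as well, and no filter called HDAC9 lower. At an unadjusted p under 0.05, 8 of the 59 differed, 2 higher (7.87% of all genes) and 6 lower (9.49%) in Nrp1-IP, beside 17.4% of all genes in either direction. DESeq2 called 5, namely BRD3 and HDAC7 higher and ARID1B, HDAC9 and KMT2E lower in Nrp1-IP, where it called 10.9% of all genes, 6.34% higher and 4.61% lower. The median log2 fold change was -0.68, beside -0.27 over all 6439 genes tested, with 17 positive and 42 negative values. Nrp1-IP lay wholly above DCC-IP for 5 genes (15.6% of all genes) and wholly below it for 7 (10.9%). Of the 59 genes, 36 passed the filter in all 6 libraries and 14 in all Nrp1-IP libraries only.

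**Figure D2:**
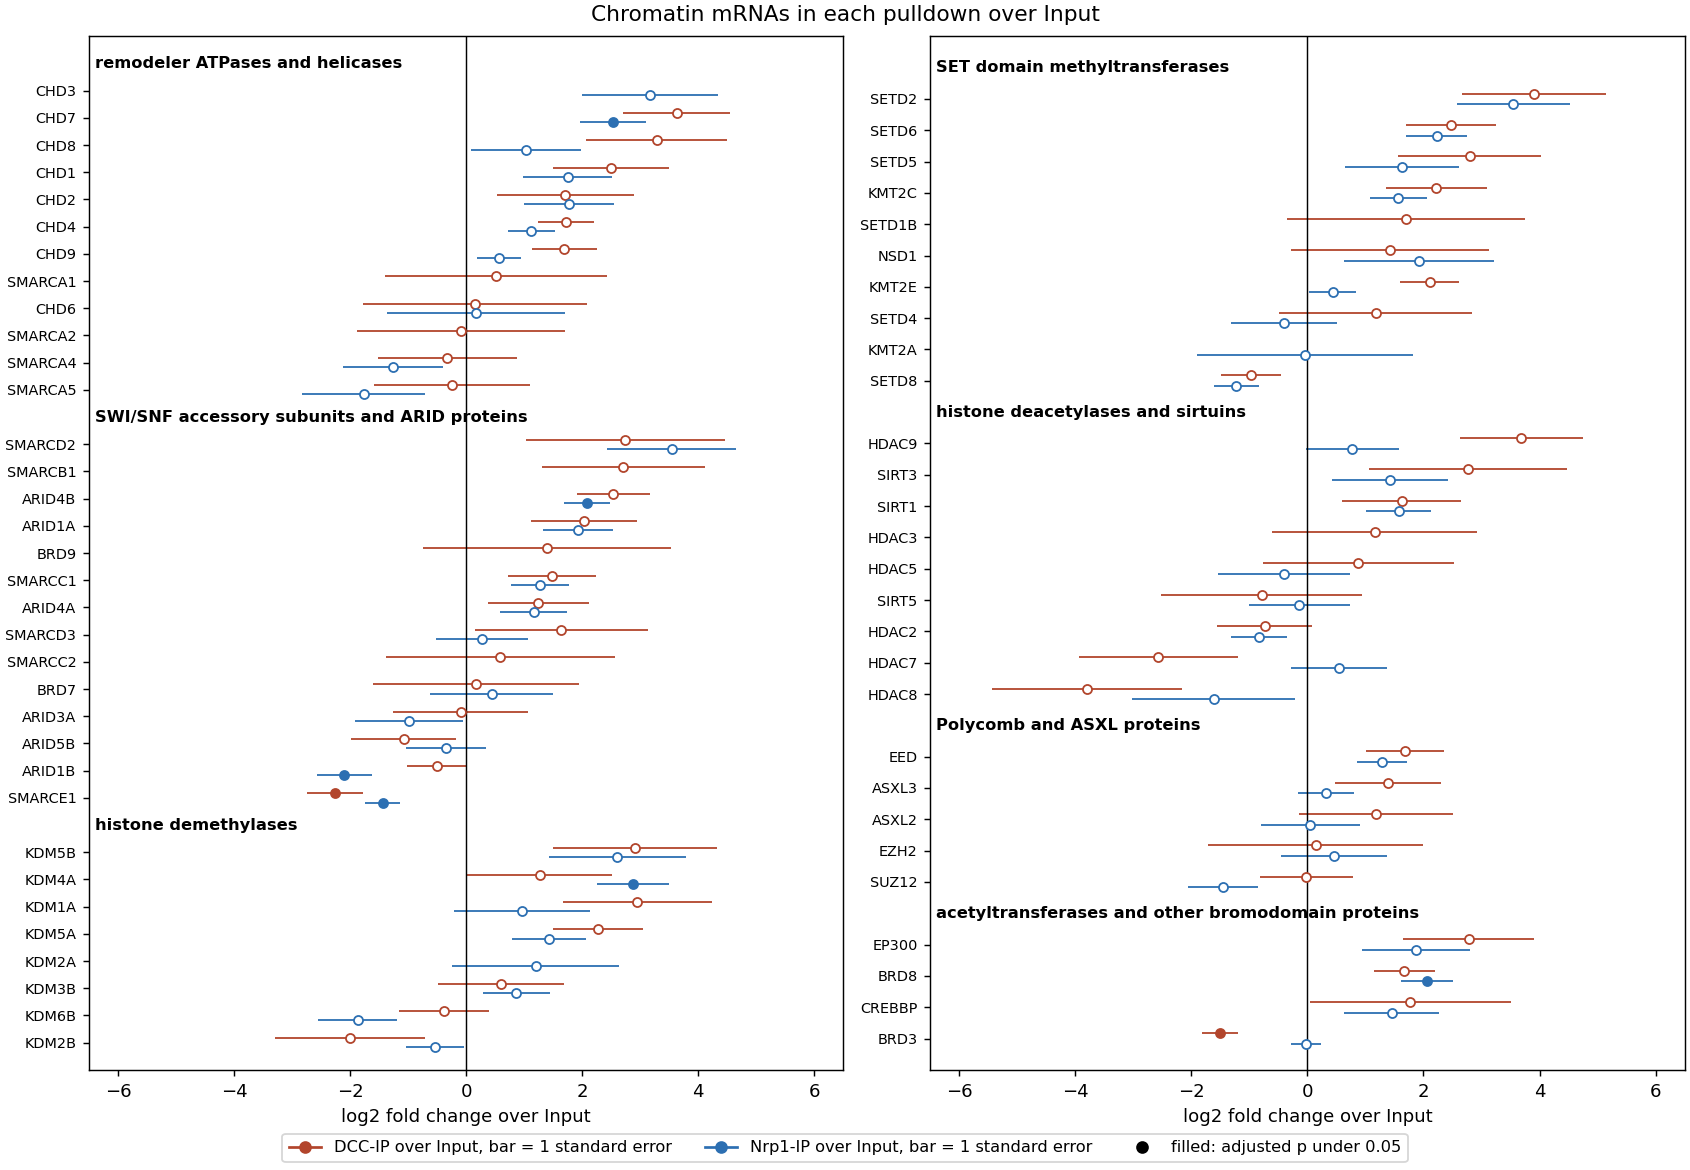
Log2 fold change over Input of the tested chromatin mRNAs reported here, by role, in DCC-IP (red, 59 drawn) and Nrp1-IP (blue, 55 drawn); bars show 1 standard error, and filled points passed an adjusted p of 0.05 without a block. Most points lie to the right of 0, 43 for DCC-IP and 38 for Nrp1-IP, and the filled points are BRD3 and SMARCE1 for DCC-IP and ARID1B, ARID4B, BRD8, CHD7, KDM4A and SMARCE1 for Nrp1-IP.

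Among the remodeler ATPases and helicases, CHD genes carried most of the positive values. CHD7, a remodeler of enhancers mutated in CHARGE syndrome, had 1063, 555 and 192 counts over the 3 DCC-IP libraries, against 266, 348 and 288 in those of Nrp1-IP and 19, 35 and 60 for Input. All pulldown libraries were above all Input libraries, and the DCC-IP libraries were spread widely. Its log2 fold change over Input was 2.53 ± 0.57 (SE) in Nrp1-IP, a 5.78-fold rise (adjusted p = 0.0471), and 3.63 ± 0.92 in DCC-IP (adjusted p = 0.0578, or 0.0789 with the block). CHD4, the ATPase of the NuRD complex, had 1189, 973 and 568 counts for Input, beside 5196, 3267 and 3387 with DCC-IP and 1915, 3530 and 2596 with Nrp1-IP. Each pulldown lay above Input in all libraries, with a log2 fold change of 1.72 ± 0.47 in DCC-IP (adjusted p = 0.0723, and 0.00893 with the block) and of 1.12 ± 0.40 in Nrp1-IP (adjusted p = 0.157). CHD9, a less studied member of the family, averaged 23.8 ± 2.66 CPM in Input, 73.2 ± 31.4 with DCC-IP and 33.2 ± 7.18 with Nrp1-IP (SD, n = 3 each), and its Nrp1-IP libraries were all below its DCC-IP libraries. Of the 11 ATPases and helicases tested in DCC-IP over Input, 8 were positive on the log2 scale. None was called in the fit described first, while DESeq2 called CHD1, CHD7 and CHD8 higher. The 3 with negative values were SMARCA2 (-0.09), SMARCA4 (-0.32) and SMARCA5 (-0.25), which are the ATPases of SWI/SNF and ISWI complexes, with standard errors from 1.19 to 1.79.

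The SWI/SNF accessory subunits and ARID proteins held calls in both directions. SMARCE1, an HMG-box subunit of SWI/SNF, was lower in each pulldown than in Input. Its counts were 2029, 1925 and 2052 for Input, 1005, 1013 and 1000 after Nrp1 pulldown and 310, 648 and 758 after DCC pulldown, and the 3 groups did not overlap. It fell by 2.26 ± 0.48 on the log2 scale in DCC-IP (adjusted p = 0.0345), and by 1.44 ± 0.31 in Nrp1-IP (adjusted p = 0.0411). ARID4B, a subunit of the SIN3A corepressor complex, moved the other way, with 195, 426 and 246 counts in Input, 3223, 2280 and 985 after DCC pulldown and 1897, 1014 and 1966 after Nrp1 pulldown. Every pulldown library was above every Input library, and the log2 fold change over Input was 2.08 ± 0.40 in Nrp1-IP (adjusted p = 0.0322, 4.23-fold) and 2.54 ± 0.63 in DCC-IP (adjusted p = 0.0563, and 0.0271 with the block). ARID1B, the DNA-binding subunit of SWI/SNF whose loss causes Coffin-Siris syndrome, had 2614, 1648 and 3880 counts over the 3 DCC-IP libraries, against 947, 934 and 887 in those of Nrp1-IP and 1767, 2102 and 4685 for Input. The Nrp1-IP libraries were the lowest, and DCC-IP overlapped Input. ARID1B fell by 2.098 ± 0.47 on the log2 scale in Nrp1-IP against Input (adjusted p = 0.0474), and between the receptors its log2 fold change in Nrp1-IP was -1.64 ± 0.40 (adjusted p = 0.0580).

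ARID3A and ARID5B, DNA-binding proteins of the same family, had among the highest counts of the group but differed more between replicates than between conditions. ARID3A had 3436, 5234 and 288 counts for Input, beside 5000, 5524 and 183 with DCC-IP and 2758, 2208 and 559 with Nrp1-IP. ARID5B had 5906, 2263 and 1141 counts in Input, 3503, 1858 and 290 after DCC pulldown and 5343, 2582 and 1898 after Nrp1 pulldown. In both genes the third library was the lowest of its group in each condition, and no comparison passed the test.

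Of the histone demethylases, KDM4A was called. KDM4A, which removes methyl groups from histone H3, had 8, 151 and 233 counts over the 3 DCC-IP libraries, against 376, 313 and 426 in those of Nrp1-IP and 38, 68 and 11 for Input. The Nrp1-IP libraries were above all others, while DCC-IP overlapped Input. It rose by 2.87 ± 0.62 on the log2 scale in Nrp1-IP over Input, 7.32-fold (adjusted p = 0.0431), and between the receptors its log2 fold change in Nrp1-IP was 1.51 ± 0.93. KDM5A, which removes the methyl mark of active promoters, had 324, 179 and 49 counts for Input, beside 840, 1818 and 913 with DCC-IP and 549, 623 and 899 with Nrp1-IP. Each pulldown lay above Input, and the log2 fold change was 2.27 ± 0.77 in DCC-IP (adjusted p = 0.124, and 0.0426 with the block) and 1.43 ± 0.64 in Nrp1-IP (adjusted p = 0.247). KDM6B, which removes the methyl mark set by Polycomb proteins, was lower in Nrp1-IP than in DCC-IP in every library, at 10.3 ± 4.75 against 25.4 ± 12.2 CPM, without passing the test (log2 fold change -1.46 ± 0.70). Input was at 38.1 ± 25.9 CPM and overlapped Nrp1-IP. In Nrp1-IP over Input, KDM6B had a log2 fold change of -1.87 ± 0.68 (adjusted p = 0.162, or 0.0229 by DESeq2).

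Within the SET domain methyltransferases, KMT2E was the gene whose DCC-IP libraries stood apart from both other groups. KMT2E, a protein of the MLL family with a PHD finger that binds methylated histone H3, had 173, 183 and 209 counts in Input, 1021, 1031 and 1210 after DCC pulldown and 336, 241 and 495 after Nrp1 pulldown. The DCC-IP libraries lay above all others. The log2 fold change against Input was 2.105 ± 0.51 for DCC-IP (adjusted p = 0.0520, and 0.0217 with the block), and 0.44 ± 0.40 for Nrp1-IP (adjusted p = 0.596), and between the receptors it was -1.78 ± 0.46 in Nrp1-IP (adjusted p = 0.0709). Positive values over Input were found for 8 of the 9 methyltransferases tested after DCC pulldown and 6 of the 9 after Nrp1 pulldown. None was called in the fits described first. In DCC-IP over Input, the block called KMT2E, and DESeq2 called KMT2C, KMT2E, SETD2 and SETD6 higher. In Nrp1-IP over Input, DESeq2 called KMT2C, SETD2 and SETD6 higher and SETD8 lower. The negative value in DCC-IP was that of SETD8, which adds a single methyl group to histone H4, at -0.97 ± 0.52. SETD8 averaged 282 ± 113 CPM in Input, 137 ± 63.5 with DCC-IP and 113 ± 24.0 with Nrp1-IP. In Nrp1-IP over Input, SETD8 had a log2 fold change of -1.22 ± 0.39 (adjusted p = 0.116, or 0.0158 by DESeq2). Every Nrp1-IP library lay below every Input library for SETD8. SETD2, which methylates histone H3 along transcribed genes, had the highest fold change over Input of the role in each pulldown, 3.91 ± 1.25 in DCC-IP and 3.55 ± 0.97 in Nrp1-IP. Its counts were low, with 2, 19 and 2 for Input, 185, 131 and 138 after DCC pulldown and 163, 58 and 113 after Nrp1 pulldown. All of its pulldown libraries were above its Input libraries, of which 2 were below the limit of detection. Neither comparison passed the adjusted test in the fits described first.

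Of the histone deacetylases and sirtuins, 9 could be tested in DCC-IP over Input and 8 in each of the other comparisons. None was called in the fits described first. HDAC9 was called in DCC-IP over Input with the block and by DESeq2, and DESeq2 called HDAC7 and HDAC9 between the receptors. HDAC9, a class IIa deacetylase that represses MEF2 targets, had 823, 120 and 397 counts over the 3 DCC-IP libraries, against 50, 87 and 56 in those of Nrp1-IP and 40, 7 and 32 for Input. Its DCC-IP libraries were above all others. Against Input the log2 fold change in DCC-IP was 3.69 ± 1.06 (adjusted p = 0.0810, and 0.0191 with the block), and between the receptors that of Nrp1-IP was -2.99 ± 0.86 (adjusted p = 0.0966). HDAC7, of the same class, showed the reverse order at low counts, with 36, 14 and 9 for Input, 4, 5 and 4 after DCC pulldown and 55, 33 and 29 after Nrp1 pulldown. The DCC-IP libraries were the lowest, close to the limit of detection, and between the receptors the log2 fold change in Nrp1-IP was 3.01 ± 1.25 (adjusted p = 0.252). HDAC2, a class I deacetylase of the NuRD and SIN3 complexes, averaged 21.8 ± 8.07 CPM in Input, 11.5 ± 7.02 with DCC-IP and 11.6 ± 2.96 with Nrp1-IP.

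The Polycomb and ASXL proteins gave no calls in the fits described first, with 5 genes tested in each comparison. EED, the subunit of the Polycomb repressive complex that binds its methyl mark, had 80, 109 and 83 counts for Input, beside 468, 394 and 288 with DCC-IP and 184, 370 and 345 with Nrp1-IP. Both pulldowns were above Input in all libraries, with log2 fold changes of 1.68 ± 0.67 in DCC-IP and 1.28 ± 0.43 in Nrp1-IP. EZH2, the methyltransferase of the same complex, had 19, 19 and 4 counts in Input, 0, 2 and 65 after DCC pulldown and 13, 34 and 31 after Nrp1 pulldown, and its groups overlapped. ASXL3, a partner of the deubiquitinase BAP1, averaged 16.2 ± 6.97 CPM in Input, 36.5 ± 35.3 with DCC-IP and 19.4 ± 2.12 with Nrp1-IP.

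BRD3 and BRD8 took most counts of the acetyltransferases and other bromodomain proteins, with no correction for length, and took opposite positions in DCC-IP. BRD3 had 21928, 25438 and 17150 counts over the 3 DCC-IP libraries, against 64752, 59772 and 60172 in those of Nrp1-IP and 55544, 47379 and 35432 for Input. DCC-IP was below every other library, and Nrp1-IP overlapped Input. BRD3 fell by 1.51 ± 0.32 on the log2 scale in DCC-IP against Input, 2.85-fold (adjusted p = 0.0330). Against Input, the log2 fold change in Nrp1-IP was -0.02 ± 0.26, and in Nrp1-IP over DCC-IP it was 1.34 ± 0.33 (adjusted p = 0.0609). The latter difference passed the test in all 8 alternative settings, DESeq2 among them, with adjusted p from 0.000901 to 0.0418, and in 2 of the 6 fits that left out 1 library. BRD8, a subunit of the TIP60 acetyltransferase complex, had 2009, 1351 and 626 counts for Input, beside 6422, 6345 and 4020 with DCC-IP and 7556, 7760 and 7112 with Nrp1-IP. Both pulldowns were above Input in all libraries. BRD8 rose by 2.05 ± 0.45 on the log2 scale in Nrp1-IP over Input, 4.15-fold (adjusted p = 0.0438), the value for DCC-IP was 1.67 ± 0.52 (adjusted p = 0.0992, and 0.00665 with the block), and that between the receptors was 0.23 ± 0.39. BRD3 overlaps its antisense gene BRD3OS, and whether reads were counted by strand was not given in the sources used here, so that reads of both genes cannot be told apart. The same holds for other genes here, since 66 of the 94 overlap another gene in RefSeq GRCh38.p14, among them ARID1B, ARID4B, CHD4, HDAC9, KDM4A and KMT2E, whereas BRD8, CHD7 and SMARCE1 overlap none.

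**Figure D3:**
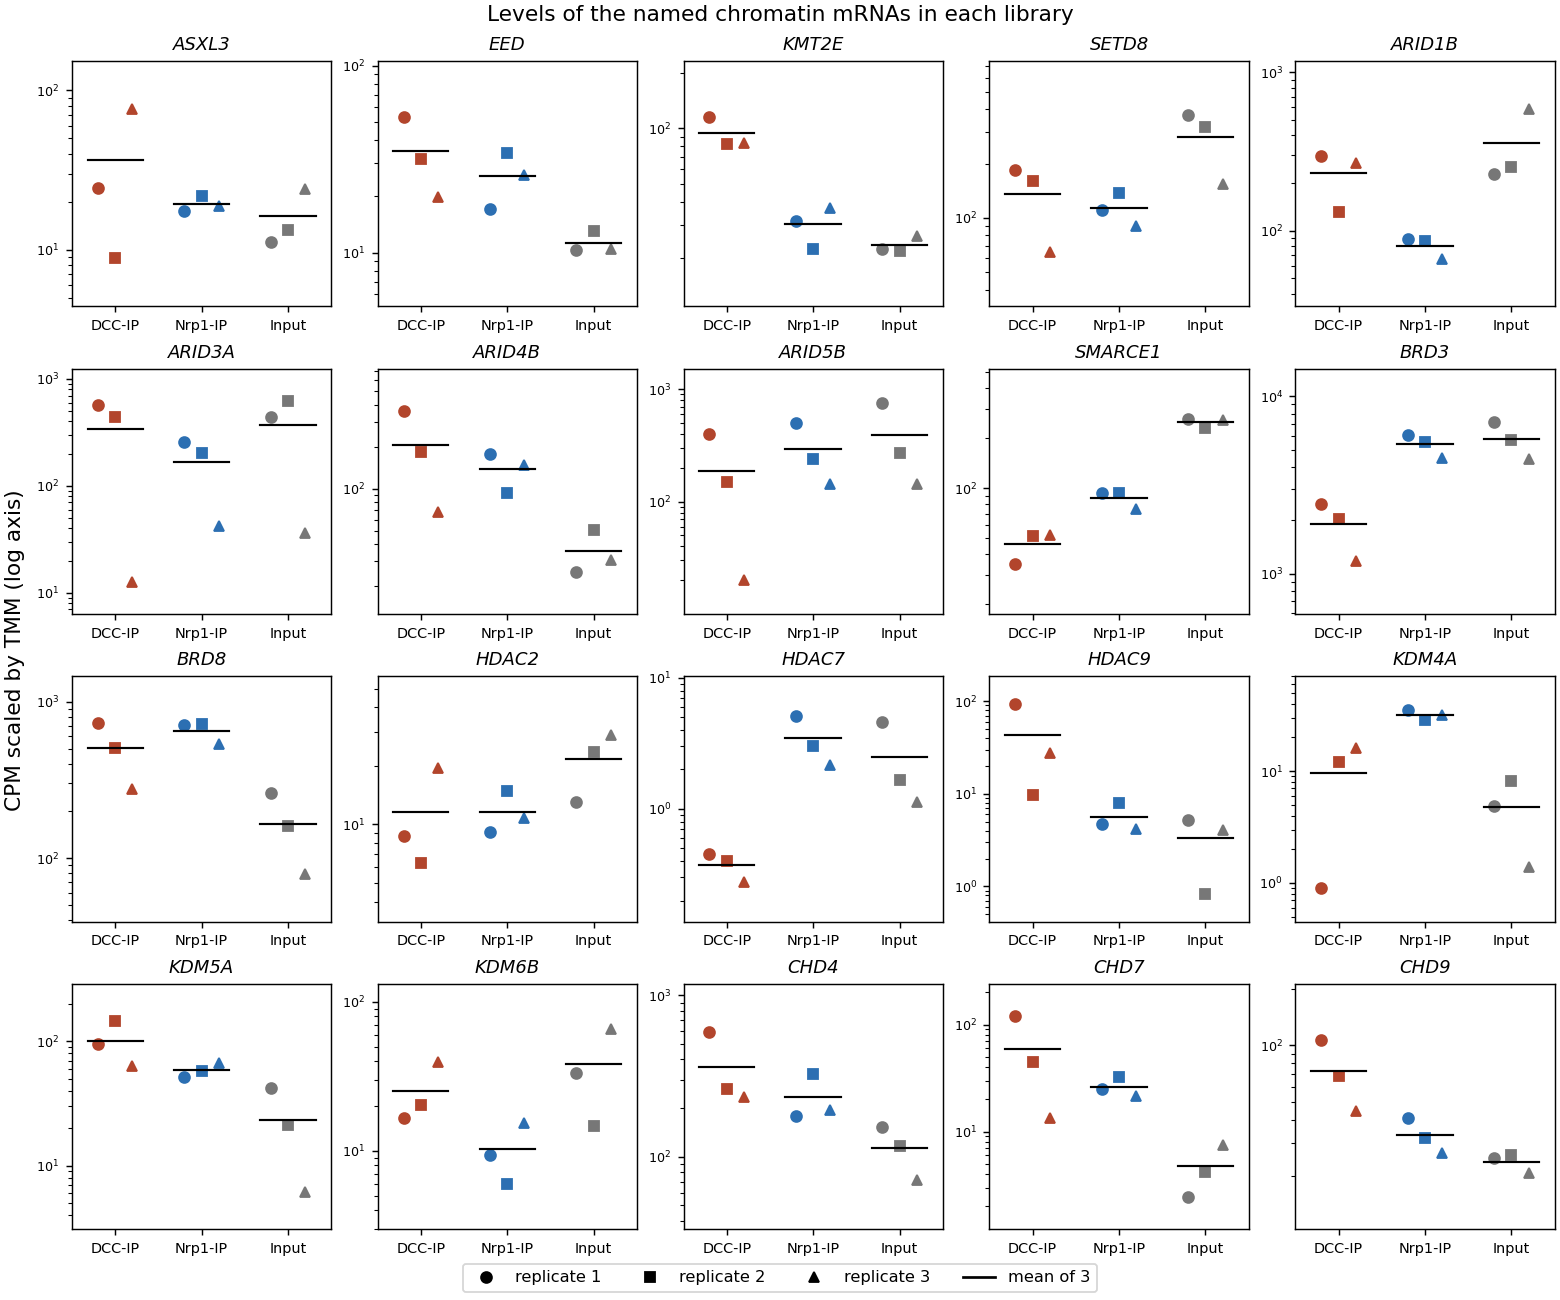
CPM of the 20 chromatin mRNAs named by rule in each library, on a log axis; symbols mark the replicate numbers and lines the mean of 3. KMT2E, HDAC9 and CHD9 stood highest in DCC-IP, KDM4A in Nrp1-IP and SMARCE1 in Input. BRD3, HDAC7 and SMARCE1 stood lowest in DCC-IP and ARID1B in Nrp1-IP. ARID4B, BRD8, CHD4, CHD7, CHD9, EED and KDM5A stood lowest in Input.

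Most calls were lost when 1 library was left out. SMARCE1 in DCC-IP over Input passed in none of the 6 such fits, with adjusted p from 0.0538 to 0.182 and log2 fold changes from -2.37 to -2.05. BRD3 in the same comparison passed in 1 of 6, the fit without Input replicate 3 (adjusted p = 0.0172), and without DCC-IP replicate 3 its log2 fold change was -0.92 (adjusted p = 0.222). In Nrp1-IP over Input, ARID1B, BRD8, CHD7, KDM4A and SMARCE1 each passed in 1 of 6 fits, again that without Input replicate 3, and the adjusted p reached 0.225 in the others. ARID4B passed in none, with adjusted p from 0.0549 to 0.169. The log2 fold changes of these genes kept their sign in every such fit. Other settings ended some calls too: in DCC-IP over Input, both were lost with no filter or with MAP1B left out, BRD3 also with RLE size factors and by DESeq2 (adjusted p up to 0.191) and SMARCE1 also with library size only (up to 0.114). All 6 calls in Nrp1-IP over Input were lost when the 9 libraries were fitted together (adjusted p up to 0.242, for KDM4A), BRD8, CHD7 and KDM4A also with RLE size factors and ARID1B also with library size only.

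**Figure D4:**
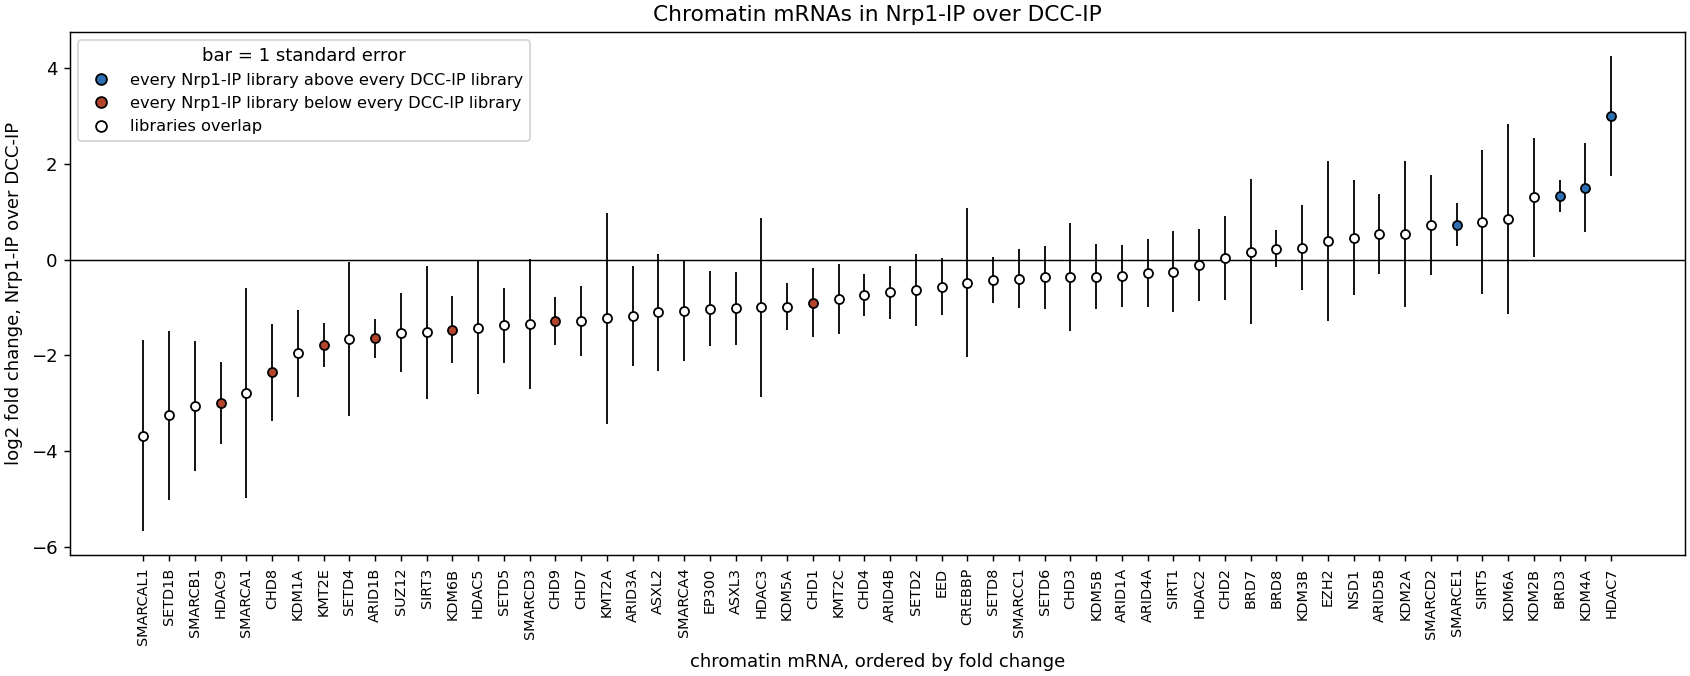
Log2 fold change in Nrp1-IP over DCC-IP of the 58 tested chromatin mRNAs drawn, in order of size, with bars of 1 standard error; colour marks genes whose Nrp1-IP and DCC-IP libraries did not overlap in CPM. The 4 blue genes lie at or above 0.74 (SMARCE1) and the 7 red genes include KMT2E (-1.78) and ARID1B (-1.64), and no gene passed the adjusted test with TMM scaling and no block.

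Replicates of these mRNAs differed widely, most of all in DCC-IP. Among chromatin mRNAs with at least 10 counts in a library of the group, the highest and lowest replicate were at least 10-fold apart for 22 of 66 in Input (33.3%), 39 of 72 after DCC pulldown (54.2%) and 14 of 68 after Nrp1 pulldown (20.6%). Over all genes listed the shares were 43.1%, 62.1% and 33.5%. The order of the 3 groups was thus the same for the chromatin mRNAs as for all genes.

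Other chromatin genes, 114 partners and relatives whose symbols fell outside those above, were read in the same fits, with 108 of them present in the files. This list was chosen with earlier results of these data known, so that its counts beside the shares of all genes are a description only. Between the receptors 58 were tested and 4 were called, beside the 3.65% of all genes given above. RBBP4, a histone chaperone of NuRD and Polycomb complexes, was higher in Nrp1-IP (1.98 ± 0.30, adjusted p = 0.00772), and MGA (-2.69 ± 0.33, adjusted p = 0.00303), ARID2 (-2.69 ± 0.54, adjusted p = 0.0268) and BRWD1 (-1.68 ± 0.37, adjusted p = 0.0426) were lower. In DCC-IP over Input 57 were tested, of which 4 were higher (BAZ1B, PRDM2, BAP1 and MGA) and 3 lower (CBX1, CBX5 and TBL1XR1), beside 1.46% and 3.52% of all genes. CBX1, a heterochromatin protein, had no count in any DCC-IP library and 83, 132 and 25 in Input. In Nrp1-IP over Input 59 were tested and 2 were lower, TBL1XR1 (-1.30 ± 0.29) and RNF2 (-2.42 ± 0.45), beside 3.03% of all genes called lower, so that this count lay near the background. With 1 library left out, these calls passed in 0 (TBL1XR1 in DCC-IP over Input) to 5 (MGA between the receptors) of 6 fits. The median log2 fold change of these genes was -0.62, 0.77 and 0.13 in the 3 comparisons in this order, beside -0.68, 1.39 and 0.82 for the chromatin mRNAs above. NSD2, NSD3, KMT5B, KMT5C and KDM7A appear in the files under older symbols, of which 1 or 2 could be tested in a comparison and none was called.

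Of 4 RNAs that stay in the nucleus, KCNQ1OT1 was higher in the pulldown libraries than in Input and carried most of a higher sum. The 4 tested as markers, of which NEAT1 and MEG3 were at 0 in all libraries, summed to 27.1 to 29.4 CPM in Input, 112 to 319 with DCC-IP and 45.8 to 94.9 with Nrp1-IP, mostly as KCNQ1OT1 and, in DCC-IP replicate 3, MALAT1. MALAT1 had 3, 2 and 79 counts in Input, 8, 0 and 1685 with DCC-IP and 4, 1 and 63 with Nrp1-IP, so that its groups overlapped. The part of these RNAs in the levels of the chromatin mRNAs was not tested.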

How the data were processed

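RNA from DCC-IP, Nrp1-IP and Input was sequenced in 3 libraries each. The submitters' processing notes name bcl2fastq, HISAT2 2.1.0, HTSeq 0.11.0 and build hg19, and the annotation and strand setting were not given in the sources used here. The deposited values are the authors' raw read counts per gene symbol, without normalization, and the 5 HTSeq summary lines of each library were left out. Samples were grouped by their labels.

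Each pair of groups was fitted in edgeR 4.0.16 (R 4.3.3) on its 6 libraries, with filterByExpr (minimum count 10), TMM normalization, glmQLFit and glmQLFTest, and a gene was called where its p, adjusted by Benjamini-Hochberg over all genes tested, was under 0.05, whatever its fold. The standard error was the log2 fold change divided by the square root of F. CPM were scaled by TMM over all 9 libraries. Limits of detection cover counting error only. Genes named are members called in any comparison, the 2 members with the smallest p per direction and comparison, and the 2 with the highest mean CPM per role. SMARCA2, SMARCA4, SMARCA5, SETD2 and EZH2 were added after their values were seen, and 1 member is counted but not reported here. Members and lists were chosen with earlier results of these data known.

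Deviations from group means of same-numbered libraries correlated from 0.117 to 0.421 (mean 0.242) in DCC-IP and Input. Those of differently numbered libraries ran from -0.310 to 0.136 (mean -0.120), so that the ranges overlapped. The numbers, which come from the titles, were taken to pair these libraries. Same-numbered libraries ran from 0.0989 to 0.361 (mean 0.191) in Nrp1-IP and DCC-IP, and from -0.0044 to 0.365 (mean 0.192) in Nrp1-IP and Input. Differently numbered libraries ran from -0.208 to 0.0986 (mean -0.095) in Nrp1-IP and DCC-IP, so that these ranges did not overlap. In Nrp1-IP and Input they ran from -0.370 to 0.168 (mean -0.096) and overlapped. Deviations within a group cancel, so the mean of differently numbered pairs largely follows from that of same-numbered pairs and is no separate evidence. The comparisons with Nrp1-IP were not taken as paired, although their means were near those of DCC-IP and Input. The ranges do not set DCC-IP and Input apart from them, so this choice is open. It bears on the calls between the receptors, where the block called BRD3 higher and ARID1B lower. Alternatives were RLE size factors, library size only, DESeq2 1.42.0, leaving out the filter, a minimum of 10 counts in all libraries, 1 fit over all 9 libraries, the replicate block, MAP1B left out, and each library left out in turn. The fits were tested on simulated data. Overlapping genes were taken from RefSeq names of GRCh38.p14, which matched all 94 symbols.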

Additional observations from a re-analysis of the deposited data

How the results depend on the processing

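As an alternative setting, replicate numbers were used as a block in every comparison, also in those not taken as paired. With the replicate block, the genes called higher and lower were 1 and 1 in Nrp1-IP over DCC-IP (BRD3 and ARID1B), 6 and 2 in DCC-IP over Input, and 4 and 2 in Nrp1-IP over Input, where 5.73%, 11.5% and 8.55% of all genes were called, and the medians of the chromatin mRNAs were -0.36, 1.17 and 1.02.

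In Nrp1-IP over DCC-IP, 1 gene, BRD3, was called higher with RLE size factors, library size only, MAP1B left out, all 9 libraries, no filter or a minimum of 10 counts in all libraries, and 2 by DESeq2, and 3 were called lower by DESeq2, 3 with at least 10 counts and 1 with no filter. The genes tested numbered 59, 60 and 56 in the 3 comparisons, but 86, 88 and 89 with no filter, 36, 26 and 31 with at least 10 counts, 66 in each with all 9 libraries and 60, 54 and 56 with MAP1B left out. Of all genes, those higher and lower between the receptors were 6.34% and 4.61% by DESeq2, 9.42% and 5.49% with at least 10 counts, 1.95% and 1.12% with no filter, and from 2.96% to 3.66% and from 0.646% to 0.699% in the other settings named. The median was -0.35 with library size only, -0.377 with no filter, -0.41 with at least 10 counts and -0.379 with MAP1B left out. In DCC-IP over Input, the genes called higher were 4 with library size only, 10 by DESeq2, 4 with no filter, 11 with at least 10 counts and 6 with all 9 libraries, and those called lower were 1 with RLE, 1 with library size only, 1 by DESeq2, 0 with no filter and 0 with MAP1B left out. Of all genes, 2.27%, 8.16%, 1.44%, 17.8% and 3.74% were higher in the settings given for higher calls, and 2.72%, 2.68%, 8.42%, 1.34% and 0.788% lower in those given for lower calls, in the same order. The median was 1.21 with RLE, 1.68 with library size only, 1.21 by DESeq2, 1.64 with at least 10 counts, 1.18 with all 9 libraries and 1.61 with MAP1B left out. In Nrp1-IP over Input, the genes called higher were 1 with RLE, 8 by DESeq2, 7 with no filter, 7 with at least 10 counts and 0 with all 9 libraries, and those called lower were 1 with library size only, 4 by DESeq2, 4 with no filter and 0 with all 9 libraries. The shares of all genes were 1.31%, 5.80%, 1.45%, 7.98% and 0.288% higher, and 2.57%, 9.06%, 3.91% and 1.35% lower, again in that order. The median was 0.66 with RLE, 1.27 with library size only, 0.66 by DESeq2, 0.50 with no filter, 0.44 with at least 10 counts and 0.42 with all 9 libraries. Leaving out 1 library gave 0 to 1 higher and 0 lower calls in Nrp1-IP over DCC-IP, 0 to 2 and 0 to 1 in DCC-IP over Input, and 0 to 3 and 0 to 3 in Nrp1-IP over Input, with medians from -0.79 to -0.24, from 1.11 to 1.44 and from 0.51 to 0.72. With MAP1B left out the DCC-IP share was 0.967%. The causes of these differences were not tested.

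Scaling moved the median of all genes, so that with library size only it was 0.48 in DCC-IP over Input and 0.44 in Nrp1-IP over Input. Over all genes, higher against lower calls were then 209 against 45 in Nrp1-IP over DCC-IP (165 against 70 by TMM), 141 against 167 in DCC-IP over Input (91 against 219) and 351 against 167 in Nrp1-IP over Input (126 against 197), and 85 against 265 in the last with RLE size factors. Taken relative to all genes, the median of the chromatin mRNAs lay from -0.68 to -0.12 in Nrp1-IP over DCC-IP, from 1.03 to 1.66 in DCC-IP over Input and from 0.44 to 0.83 in Nrp1-IP over Input, over the alternatives.

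Signs turned over only in values that passed the test in neither setting. With 1 library left out, values in Nrp1-IP over DCC-IP ran from -0.77 to 0.19 for ARID4B, from -0.82 to 0.025 for EED and from -0.60 to 0.038 for SETD8, each positive without DCC-IP replicate 1, from -0.0088 to 1.83 for ARID5B, negative without Nrp1-IP replicate 1, from -1.38 to 0.52 for ASXL3, positive without DCC-IP replicate 3, and from -0.32 to 0.87 for HDAC2, which was also positive at 0.054 with no filter, 0.020 with at least 10 counts, 0.013 with all 9 libraries, 0.00097 with the replicate block and 0.077 with MAP1B left out. In DCC-IP over Input they ran from -0.80 to 0.063 for ARID1B, from -0.83 to 0.23 for KDM6B, positive without Input replicate 3, and from -0.68 to 0.95 for ARID3A, which was also positive at 0.15 with library size only, 0.34 with no filter, 0.16 with at least 10 counts and 0.39 with MAP1B left out. In Nrp1-IP over Input they ran from -1.002 to 0.48 for ARID5B and from -0.33 to 0.083 for BRD3, and with library size only these genes were at 0.11 and 0.38. Of the values of single genes under the alternatives, 687 kept their direction and their side of the threshold, 57 passed it only there, 59 no longer passed it and 28 changed sign.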

Other observations

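Some chromatin mRNAs followed the replicate number across groups. Of the 50 tested in all 3 comparisons, 9 (18%) were lowest in the third library of each group, namely ARID1A, ARID3A, ARID5B, BRD3, BRD8, CHD9, HDAC7, SETD8 and SIRT1, and 4 (8%) were highest there, ASXL2, KDM1A, KDM6B and NSD1. Over all 5393 such genes the shares were 10.1% and 12.3%. ARID5B, BRD3 and HDAC7 were also highest in the first library of each group, 3 of the 50 (6%) beside 7.14% of all such genes. What the libraries of 1 number share is not given in the sources used here.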
